A study of Rattus norvegicus with 30 samples.

Results

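Substance P is a small peptide of the tachykinin family, and this account follows the gene that encodes it, Tac1, with the receptor genes Tacr1 and Tacr2 and the peptidase genes Mme and Ace in lungs of rats that had inhaled copper oxide nanoparticles. The members are all array probes whose RefSeq transcript belongs to one of these 5 genes. The 5 genes, of 15168 that the array names, have 7 such probes among 30367, and 6 of the 7 were bright enough to be tested, with 20852 tested in all. Tac1 was picked because its signal was much lower in exposed rats on day 6, so its day 6 values describe that choice and carry no test.

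Substance P is cut from the Tac1 precursor, which also yields neurokinin A, and is best known from sensory nerve fibres whose cell bodies lie in ganglia outside the lung. Immune and epithelial cells can make it too. In airways it acts mainly through the neurokinin 1 receptor, encoded by Tacr1, on vessels, glands and immune cells, while neurokinin A acts mainly through the neurokinin 2 receptor, encoded by Tacr2, on airway smooth muscle. Neprilysin (Mme) and angiotensin-converting enzyme (Ace) are cell surface peptidases that inactivate substance P.

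Lung RNA came from 30 adult male outbred Wistar rats (strain HsdCpb:WU), obtained at 8 weeks of age. They breathed air, 3.3 mg/m3 of CuO nanoparticles (low dose) or 13.2 mg/m3 (high dose), nose-only, on 5 consecutive days, with each dose given as its 6-hour equivalent. Lungs were taken 1 day after the last exposure (day 6) or 22 days after it (day 28). Each of the 6 groups held 5 rats. The labels name the nanoparticle as treatment for the rats at 0 mg/m3 as well; the protocol describes controls that breathed air, and those rats were taken as the air groups. Each rat gave 1 array with 2 colours, in which its lung RNA (Cy5) was set against a reference RNA shared by all arrays (Cy3). The value used throughout is the log2 ratio of lung over reference for 1 probe, so ratios are compared between rats for a probe and never between probes.

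Arrays had a median Cy5 intensity of 216 to 432. By the scanner's own flag, 59.5% to 68.4% of an array's probes were well above background. All 9 markers of lung epithelium fixed for a check of the tissue were well above background, and their mean log2 ratio ran from 5.93 to 6.73 over the 30 rats. On day 6, 1 air rat (rat 4) stood apart by its heart muscle RNA: the mean log2 ratio of 9 heart markers was 4.10 there and -0.81 in the median rat of its group. Lower but raised values occurred in exposed groups. The highest rat had 1.73 at the low dose on day 6, where the group median was -0.77. On day 28 the highest rat had 0.96 at the low dose and 0.91 at the high dose. The main results keep all 30 rats. On account of heart muscle RNA only rat 4 was left out, and only in separate fits that are named where they are given. In whole lung RNA, fewer cells of a type and less RNA per cell cannot be told apart.

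For Tac1, 2 stretches of 30 bases, and for Tac4 the whole window, are shown because Tac1 and its relative Tac4, which encodes the tachykinin hemokinin 1, had opposite differences on day 6. They come from the 250 bases before the gene starts in the RefSeq promoter table (GRCr8), on the plus strand of chromosomes 4 and 10, and capitals mark matches to TGACG, the core of the cyclic AMP response element, or to CACGTG, an E-box, on either strand.
Tac1, chr4:36645365-36645394: tccctaaaattgCGTCAtttcgaacccaat
Tac1, chr4:36645499-36645528: tggggagagtgtCACGTGgctctccaggct
Tac4, chr10:80704390-80704639: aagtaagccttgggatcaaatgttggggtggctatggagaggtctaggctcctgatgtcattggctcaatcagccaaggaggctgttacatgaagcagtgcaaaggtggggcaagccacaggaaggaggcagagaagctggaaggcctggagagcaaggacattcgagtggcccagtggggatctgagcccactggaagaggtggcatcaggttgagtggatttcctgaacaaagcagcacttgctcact
The Tac1 matches begin 206 bases (TGACG, on the reverse strand) and 72 bases (CACGTG) before the start the table uses. Of the 250 Tac1 bases, 239 lie inside the span of the gene in the RefSeq annotation, so only the stretches around the matches are printed. Among 33469 promoter windows of this length, 18.2% held TGACG and 5.59% held CACGTG. Another match in Tac1, to the metal response element core TGCGCNC, begins 11 bases before the start on the reverse strand, and 11.8% of windows held that motif. The Tac1 window had no match to the full element TGACGTCA (1.59% of windows), to AP-1, TGANTCA (6.34%), to the antioxidant response element core TGACNNNGC (10.1%), to the second metal response element core TGCACNC (10.3%) or to the TATA box TATAAA (12.9%). The Tac4 window matched none of these 8 motifs on either strand. The motifs were chosen after the Tac1 window had been seen; TGACG lies within TGACGTCA, and the matches describe letters, not bound sites.

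Tac1 signal was high in air rats and lower in all exposed rats on day 6, with 8 of the 10 exposed rats not well above background, and most of the gap had closed by day 28. Probe 1 (A_64_P009999, 2 spots) and probe 2 (A_64_P009996, 1 spot) were designed on different RefSeq transcripts of Tac1, and no spot of either was flagged as an outlier.

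For probe 1 on day 6, air rats 1 to 5 had log2 ratios of 2.75, 2.37, 2.84, 2.78 and 2.45. Low dose rats 47 to 51 had -0.19, 0.13, -0.76, -0.71 and 0.58. High dose rats 75 to 79 had -0.75, -0.69, -0.84, -0.58 and -0.52. Every exposed rat thus lay below every air rat, while the dose groups overlapped, with low dose rat 49 below 4 of the 5 high dose rats. The signal was well above background in 5 of 5 air rats, in 2 of 5 low dose rats (48 and 51) and in 0 of 5 high dose rats. Raw Cy5 intensity ran from 802 to 1555 in air rats, from 76 to 273 in low dose rats and from 71.5 to 82 in high dose rats, where the local background was 73 to 81.8.

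The mean was 2.64 ± 0.21 (SD, n = 5) in air rats, -0.19 ± 0.57 (SD, n = 5) at the low dose and -0.68 ± 0.13 (SD, n = 5) at the high dose. The difference from air was -2.83 on the log2 scale at the low dose and -3.31 at the high dose. Because no high dose rat had a measured signal, the second value is better given as an approximate lower bound. By it, the Tac1 signal in air rats was about 9.21-fold or more that in high dose rats. The bound raises each high dose array to the dimmest Cy5 signal that counts as well above background there, after loess and quantile scaling of both channels, and sets the air mean against it. On the scale of the log2 ratios this gave 9.21-fold and on the scale of Cy5 signal alone 10.6-fold. The lower of both is given as the bound here and for other probes, and without dye swaps it is open to dye bias. The bound is not strict, because a probe can lack the flag at a brighter signal. In the high dose rats the mean floor was 6.18 in log2 Cy5, while Ntf3 (neurotrophin 3) had the flag in none of them at a mean of 6.45. Non-overlap of 5 exposed and 5 air rats in either direction occurred for 7.27% of tested probes at the low dose and for 27.2% at the high dose, and nothing is read from it for Tac1, which was chosen by this contrast.

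Probe 2 was dimmer and gave the same order of groups. On day 6 its log2 ratio was 0.95 ± 0.18 (SD, n = 5) in air rats, with values from 0.71 to 1.14. At the low dose it was -0.09 ± 0.30 (SD, n = 5) and at the high dose -0.27 ± 0.15 (SD, n = 5), again with no exposed rat as high as any air rat. The differences from air were -1.04 and -1.22, and the approximate bound at the high dose was 2.27-fold. Probe 2 was well above background in the same 2 low dose rats as probe 1 and in 0 of 5 high dose rats.

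**Figure D1:**
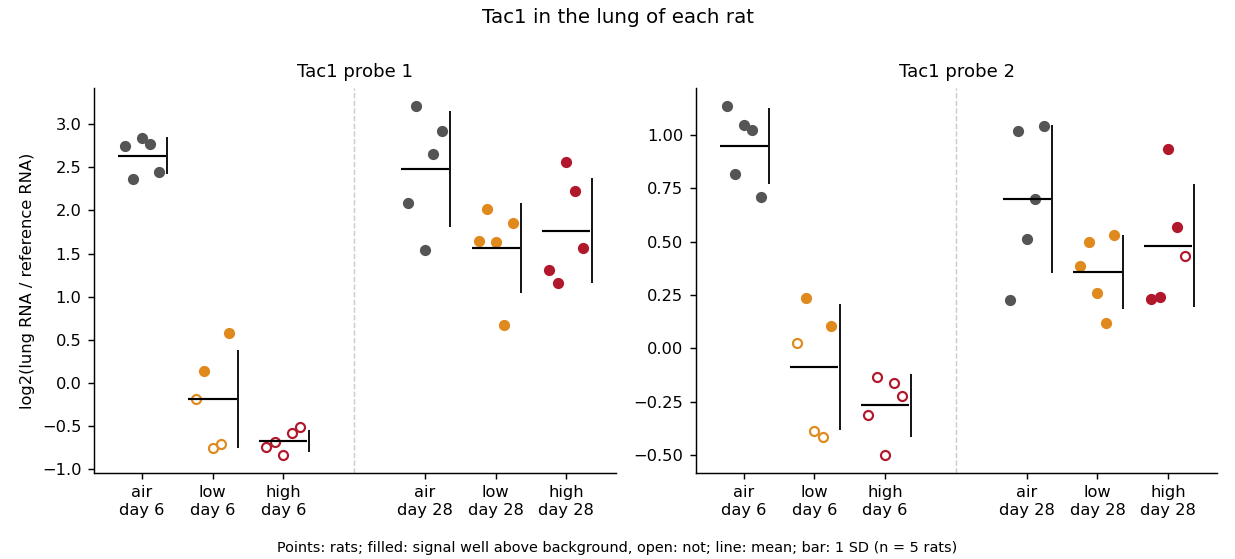
Log2 ratio of lung RNA over reference RNA for both Tac1 probes in each of the 30 rats, by group; filled points are signals well above background and open points are not, lines are group means and bars 1 SD (n = 5). The 10 exposed rats of day 6 lie below all 5 air rats in both panels, and all high dose points of day 6 are open.

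By day 28 Tac1 was measured again in all groups, with the exposed means below the air mean by less than the test could call. For probe 1, air rats 6 to 10 had log2 ratios of 2.09, 3.22, 1.54, 2.66 and 2.92. Low dose rats 52 to 56 had 1.64, 2.02, 1.63, 0.67 and 1.85. High dose rats 80 to 84 had 1.30, 1.16, 2.57, 2.23 and 1.57. All 15 were well above background, and the 3 groups overlapped, with air rat 8 lower than 4 low dose rats. Exposed and air rats that did not overlap were seen for 0.619% of tested probes at the low dose and for 1.44% at the high dose.

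The low dose mean on day 28 differed from air by -0.92 ± 0.30 (SE; 95% confidence interval -1.53 to -0.32), with an adjusted p of 0.765 from limma's moderated test over all probes and an exact two-sided permutation p of 0.0635. The high dose mean differed by -0.72 ± 0.30 (SE; interval -1.32 to -0.11), with an adjusted p of 0.276 in limma and an exact permutation p of 0.127. High and low dose rats differed by 0.20 ± 0.30 (SE; interval -0.40 to 0.81; limma adjusted p 1.00). Probe 2 gave -0.34 (limma adjusted p 0.765) at the low dose and -0.22 (limma adjusted p 0.494) at the high dose. Few probes of any gene passed on day 28: 0.0192% at the low dose (4 of 20852) and 0.182% at the high dose (38 of 20852), and 0 of the 6 tested member probes was among them. Before adjustment, both Tac1 probes at the low dose and probe 1 at the high dose had a limma p under 0.05, and the other member probes did not. For Tac1 the limma SE, interval and p use a spread shared by all groups. That spread includes the high dose rats of day 6, none with a measured signal, so the intervals may be too narrow for day 28. The exact permutation p, from the compared groups alone, was under 0.05 for neither Tac1 probe at either dose. Within slides, where slide 3 holds no air rat of day 28, the low dose difference of probe 1 was 0.29 on slide 1, -0.73 on slide 2 and -1.22 on slide 4, and the high dose difference was -0.37, -0.81 and -1.77. One low dose rat (rat 55, 0.67) lay apart from its group; without any 1 rat in turn the low dose difference ran from -1.16 to -0.70.

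The rats of day 6 and day 28 are separate animals. The probe 1 mean was 1.75 higher on day 28 than on day 6 at the low dose, 2.44 higher at the high dose and 0.15 lower in air rats. By the same approximate bound, the high dose ratio of day 28 to day 6 was about 5.03-fold or more. From high to low, the group means ran air day 6 (2.64), air day 28 (2.48), high dose day 28 (1.77), low dose day 28 (1.56), low dose day 6 (-0.19) and high dose day 6 (-0.68). Neighbours in that order overlapped rat by rat except at 1 step, low dose day 28 (lowest rat 0.67) against low dose day 6 (highest rat 0.58).

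Tacr1, the substance P receptor gene, gave hardly any signal on these arrays. Its probe (A_44_P215075, 10 spots) was well above background on 2 of 30 arrays, those of air rat 4 and high dose rat 78 of day 6, and so did not enter the test. Group medians of its log2 ratio lay between -0.56 (air, day 6) and -0.42 (high dose, day 6). The groups overlapped on both days, and a level this near background bears on no difference in the receptor. Of the 300 spots of this probe over the arrays, 22 were flagged as outliers and left out.

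Tacr2, the neurokinin A receptor gene, fell at the high dose on day 6. Air rats 1 to 5 had log2 ratios of 0.59, 0.81, 0.90, 0.93 and 0.46. Low dose rats 47 to 51 had 0.50, 0.71, 0.32, 0.47 and 0.53. High dose rats 75 to 79 had 0.36, 0.37, 0.24, 0.33 and 0.18. The high dose rats all lay below the 5 air rats, and low dose rats lay between and overlapped both groups. High dose and air rats of day 6 did not overlap for 27.2% of tested probes. In high dose rats the probe was well above background in 2 of 5, against 5 of 5 in each other group.

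The high dose difference was -0.45 ± 0.10 (SE; 95% confidence interval -0.65 to -0.24; limma adjusted p 0.000835). Its size depended on the background treatment: it was -1.50 with the scanner's processed signals, and the day 28 minus day 6 difference at the high dose given further on was 1.34 there. In this comparison 35.7% of all tested probes passed. At the low dose the difference was -0.23 ± 0.10 (SE; limma adjusted p 0.178), in a comparison where 6.27% of probes passed. High and low dose rats differed by -0.21 ± 0.10 (SE; limma adjusted p 0.188), where 11.2% of probes passed. Within slides the high dose difference was -0.16, -0.56, -0.57 and -0.67 on slides 1 to 4, lower on each, and the low dose difference was 0.18, -0.31, -0.50 and -0.43.

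On day 28 Tacr2 stood at 0.67 ± 0.15 (SD, n = 5) in air rats, 0.67 ± 0.13 (SD, n = 5) at the low dose and 0.59 ± 0.20 (SD, n = 5) at the high dose. The high dose difference from air was -0.08 (interval -0.28 to 0.13; limma adjusted p 0.745), and without high dose rat 81 it was 0.0064. High dose rats of day 28 were 0.30 ± 0.10 (SE) above those of day 6 (limma adjusted p 0.0221), in a comparison where 32.8% of probes passed. That call was lost when only the compared groups were fitted (adjusted p 0.0555) and without any 1 of high dose rats 77, 79, 80, 82 or 84. The change of the high dose effect from day 6 to day 28 was 0.37 ± 0.14 (SE; limma adjusted p 0.0746), and 16.1% of probes passed that test. For the low dose none of the 4 tested probes outside Tac1 passed it in limma, where 1.79% of probes did, and in air rats none differed between the days (2.54% of probes did).

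At the high dose on day 6, 39.6% of the 11331 tested genes with a symbol passed, 22.7% higher and 16.9% lower than in air rats, and counts over gene lists are to be read against these shares. Of 8 smooth muscle markers tested beside Tacr2, 1 was lower and 0 were higher. That marker was Myh11, the smooth muscle myosin heavy chain, with -0.69 on the log2 scale (limma adjusted p 0.00946). The log2 of their summed Cy5 signal ran from 14.32 to 15.41 in air rats and from 13.80 to 14.79 in high dose rats of day 6. Their part in the Tacr2 difference was not tested.

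Mme, which encodes neprilysin, rose at the high dose on day 6 and was back among the air values on day 28. Air rats 1 to 5 had log2 ratios of 1.93, 1.97, 2.35, 1.89 and 2.01. Low dose rats 47 to 51 had 2.15, 2.34, 2.03, 2.31 and 2.43. High dose rats 75 to 79 had 2.68, 2.62, 2.64, 2.67 and 3.16. The high dose rats lay above all air and all low dose rats, and the low dose rats overlapped the air rats. Non-overlap of high dose and air rats on day 6 occurred for 27.2% of tested probes, and its share was not counted for high against low dose. Every array measured Mme well above background.

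The high dose difference from air was 0.72 ± 0.12 (SE; 95% confidence interval 0.49 to 0.96; limma adjusted p 1.43e-05), or 1.65-fold. At the low dose it was 0.22 ± 0.12 (SE; interval -0.02 to 0.46; limma adjusted p 0.292). High dose rats exceeded low dose rats by 0.50 ± 0.12 (SE; limma adjusted p 0.00397). Over all tested probes 35.7% passed for high dose against air and 11.2% for high against low dose. With median centring in place of loess the Mme difference between the doses was 0.45 with an adjusted p of 0.228. Within slides the high dose difference from air was 0.66, 0.94, 0.79 and 0.29, higher on each of the 4 slides.

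On day 28 the high dose difference was -0.10 ± 0.12 (SE; interval -0.33 to 0.14; limma adjusted p 0.724). High dose rats of day 28 were 0.68 below those of day 6 (limma adjusted p 4.25e-05). The high dose effect itself changed between the days by -0.82 ± 0.16 (SE; limma adjusted p 0.000637); with median centring that adjusted p was 0.111. Neutrophils carry neprilysin in some species, and of 7 neutrophil markers tested 5 were higher and 1 was lower at the high dose on day 6, where 39.6% of genes passed. The log2 of their summed Cy5 signal ran from 12.20 to 12.71 in air rats and from 14.26 to 15.25 in high dose rats of day 6. Low dose rats of day 6 had 13.81 to 14.53. The part of neutrophils in the Mme difference was not tested.

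Ace, the other peptidase gene of the set, passed in no comparison of exposed with air rats. On day 6 probe 1 (A_64_P098230) gave log2 ratios of 3.50 to 4.03 in air rats, with a median of 3.88. It ran from 3.30 to 4.19 at the low dose and from 3.42 to 4.01 at the high dose. Probe 2 (A_64_P010531), designed on the same transcript, ran from 3.94 to 4.55 in air rats and from 3.35 to 4.35 at the high dose. All groups overlapped for both probes.

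The high dose difference on day 6 was -0.19 ± 0.15 (SE; 95% confidence interval -0.50 to 0.11; limma adjusted p 0.331) for probe 1. For probe 2 it was -0.38 ± 0.23 (SE; interval -0.85 to 0.10; limma adjusted p 0.211). Probe 2 passed with the slide as a block (-0.35, adjusted p 0.0284), and both probes passed when Cy5 was used without the reference channel (-0.73, adjusted p 0.00278, and -0.76, adjusted p 0.00713). On day 28 the high dose differences were -0.12 for probe 1 and 0.05 for probe 2 (limma adjusted p 0.742 and 0.943). Ace is abundant in lung capillary endothelium, and 5 of 12 endothelial markers tested were lower and 0 higher at the high dose on day 6 (4 lower without air rat 4), where 16.9% of all genes were lower and 22.7% higher. Among them were Erg, an endothelial transcription factor (-0.95), and Flt1, a receptor for vascular endothelial growth factor (-0.67). The log2 of the summed endothelial Cy5 signal ran from 17.67 to 18.09 in air rats and from 16.48 to 17.45 in high dose rats of day 6, and its part in the Ace values was not tested. Of the 4 tested probes that Tac1 does not supply, 2 passed at the high dose on day 6 and 0 at the low dose; against backgrounds of 35.7% and 6.27%, counts over so few probes do not set the members apart from other probes.

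**Figure D2:**
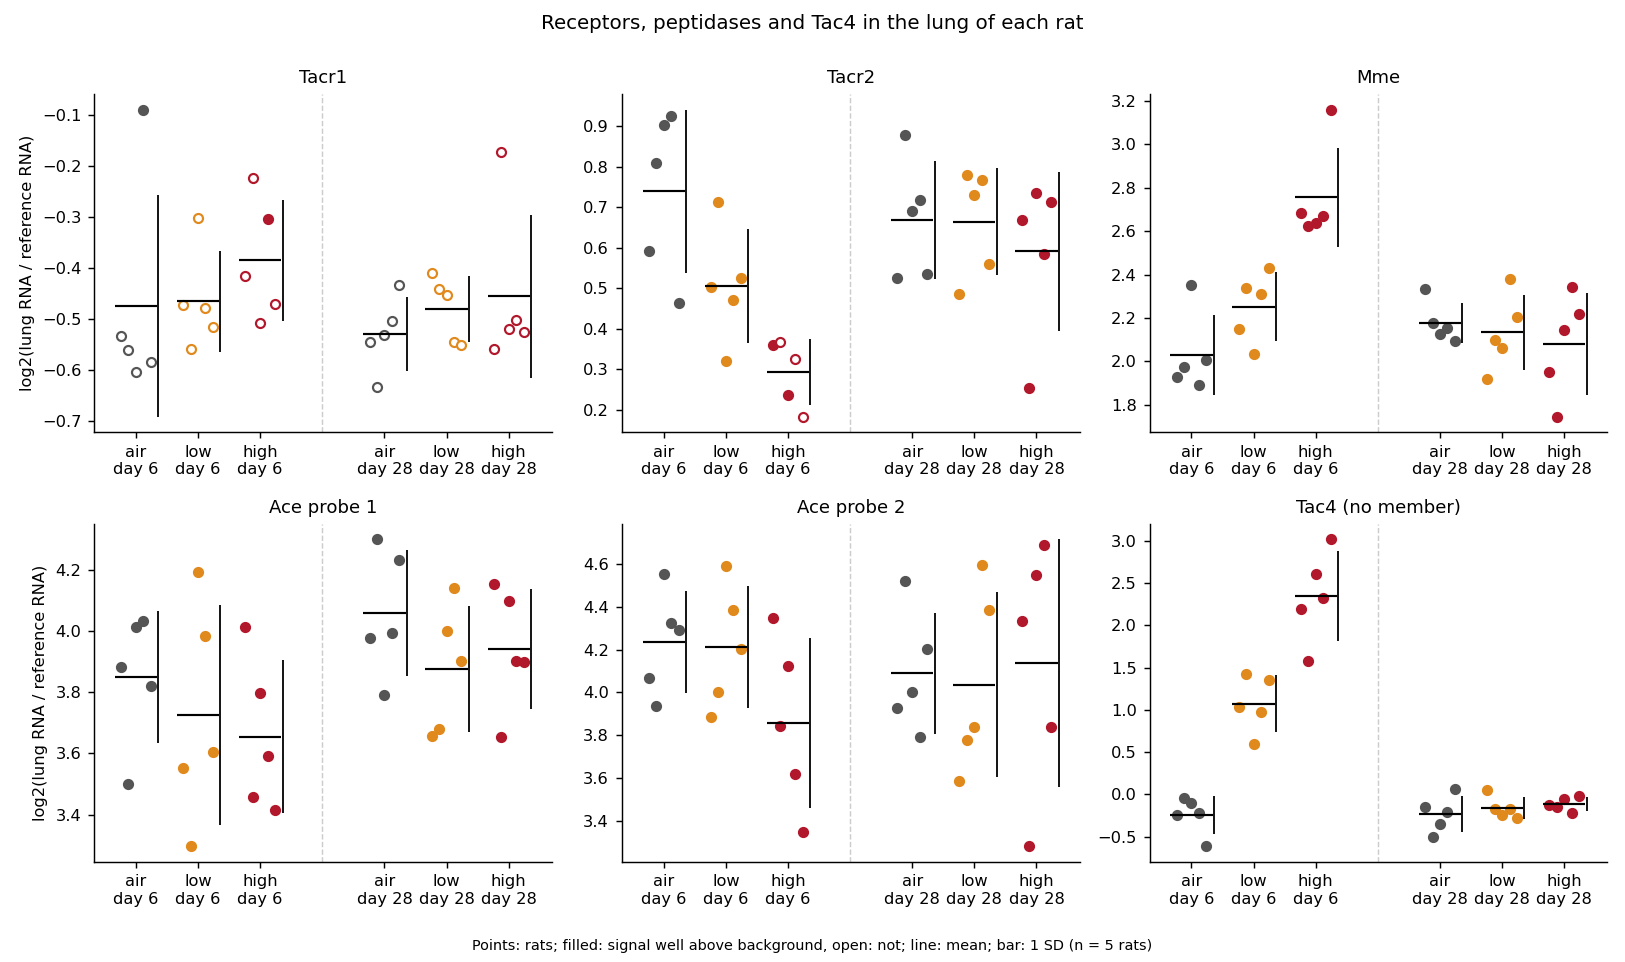
Log2 ratio of lung RNA over reference RNA for Tacr1, Tacr2, Mme, both Ace probes and Tac4 in each of the 30 rats, by group, drawn as for Tac1, each panel on its own scale. On day 6 the 5 high dose rats lie below all air rats for Tacr2 and above them for Mme and Tac4, and most Tacr1 points are open.

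Outside the 5 genes, the remaining tachykinin genes were looked at as a list of 6 with Tac1, Tacr1 and Tacr2 among them. Tac4, the hemokinin 1 gene, whose peptide binds the same receptor as substance P, rose at both doses on day 6. Air rats 1 to 5 had log2 ratios of -0.24, -0.04, -0.11, -0.22 and -0.61. Low dose rats 47 to 51 had 1.03, 1.43, 0.59, 0.97 and 1.35. High dose rats 75 to 79 had 2.19, 1.58, 2.61, 2.33 and 3.02. The 3 groups did not overlap, and every array measured Tac4 well above background. Exposed and air rats of day 6 did not overlap for 7.27% of tested probes at the low dose and for 27.2% at the high dose.

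Tac4 was 1.32 ± 0.18 (SE; 2.49-fold; limma adjusted p 8.28e-06) above air at the low dose. It was 2.59 ± 0.18 (SE; 6.01-fold; limma adjusted p 5.37e-12) above air at the high dose. The high dose exceeded the low dose by 1.27 ± 0.18 (SE; limma adjusted p 1.15e-05). On day 28 the differences from air were 0.07 and 0.12 (limma adjusted p 0.942 and 0.790). The within-slide high dose differences of day 6 were 2.00, 2.71, 2.41 and 2.71. High minus low dose varied more, with 0.15 on slide 1 and 1.64 on slides 2 and 4. In the same rats both exposed groups of day 6 lay above air for Tac4 and below air for Tac1, a contrast that includes the choice of Tac1. Nothing is read from the order of the doses for Tac1, whose dose groups overlapped with no high dose rat well above background. Tac4 is known from blood-forming and immune cells, and 10 of 13 macrophage and monocyte markers (9 without air rat 4) and 7 of 7 T cell markers tested were higher at the high dose on day 6, as were 22.7% of all genes. The log2 of the summed macrophage Cy5 signal ran from 13.80 to 14.24 in air rats, from 14.93 to 15.36 in low dose rats and from 15.65 to 16.45 in high dose rats, and its part in the Tac4 difference was not tested.

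Tac3, the neurokinin B gene, differed by 0.12 at the high dose (limma adjusted p 0.549). Tacr3, the neurokinin B receptor gene, was well above background on 0 of 30 arrays.

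**Figure D3:**
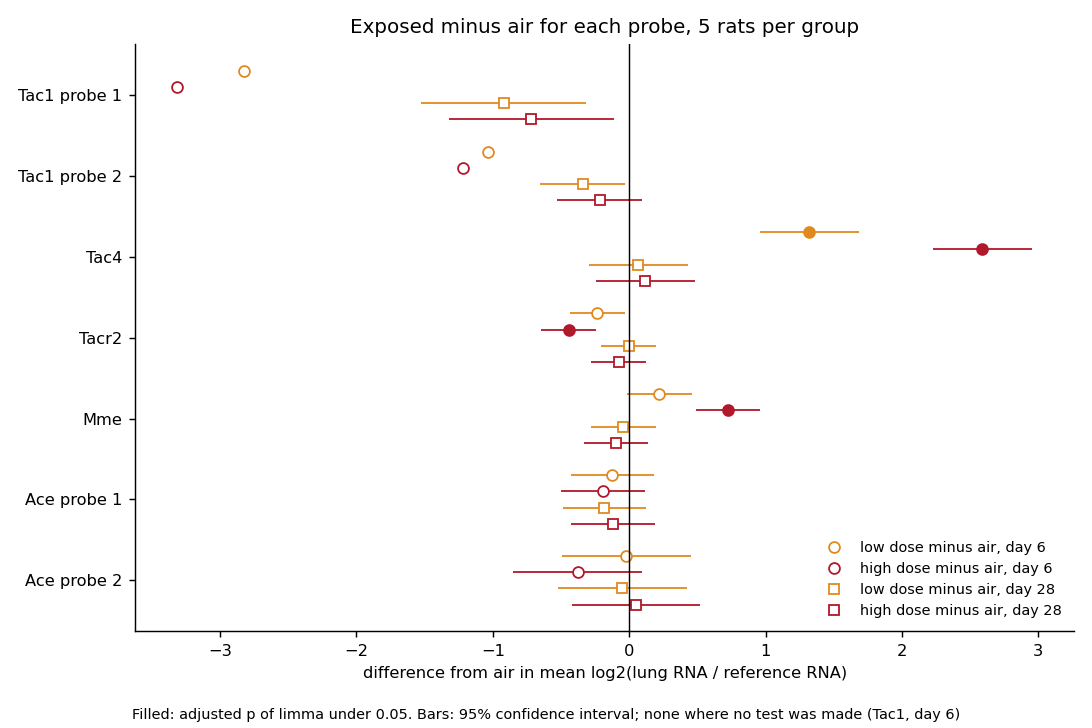
Difference from air in mean log2 ratio for each Tac1, Tac4, Tacr2, Mme and Ace probe, at both doses and on both days (5 rats per group); bars are 95% confidence intervals and filled points passed at an adjusted p of 0.05 in limma. Tac1 on day 6 has no interval because it was chosen by that contrast; the filled points are Tac4 at both doses and Tacr2 and Mme at the high dose, all of day 6.

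Of 6 genes for enzymes that cut and finish neuropeptide precursors, and for helpers and inhibitors of these enzymes, 5 were tested at the high dose on day 6. Pcsk1, Pam, Cpe and Pcsk1n fell, 0 rose, Scg5 did not pass (-0.48, limma adjusted p 0.121), and the median difference was -0.89 against 0.01 over all 11331 genes, of which 39.6% passed and 16.9% were lower. The list as a whole has no test. For single probes, high dose and air rats of day 6 did not overlap in 27.2% of those tested. Pcsk1, a convertase that cleaves peptide precursors, differed by -0.90 ± 0.15 (SE; limma adjusted p 2.74e-05), and its 5 high dose rats (-1.03 to -0.66) lay below its 5 air rats (-0.12 to 0.17). Pam, which makes the amidated end that substance P carries, differed by -1.21 ± 0.24 (SE; limma adjusted p 0.000239), and its air (1.52 to 2.65) and high dose ranges (0.33 to 1.54) just overlapped. Cpe, which trims basic residues from cut peptides, differed by -0.89 ± 0.22 (SE; limma adjusted p 0.00246). In air rats 1, 2, 3 and 5 the Cpe log2 ratio ran from -3.25 to -2.99, and in air rat 4, the rat with the most heart muscle RNA, it was -1.52. Without that rat Cpe still fell, by 0.57 ± 0.15 (SE; limma adjusted p 0.00441), and the median of the list was -0.57. Pcsk1n, an inhibitor of Pcsk1, was the fourth (-0.36, limma adjusted p 0.00505). At the low dose, where 7.85% of genes passed (5.9% higher and 1.95% lower), 0 of the 5 did, with a median of -0.34. On day 28 at the high dose 0 of 5 passed, with a median of -0.23. Pam and Cpe were higher again at the high dose on day 28 than on day 6, by 0.97 and 0.84 (limma adjusted p 0.00249 and 0.0048), and Pcsk1 by 0.32 (limma adjusted p 0.111).

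**Figure D4:**
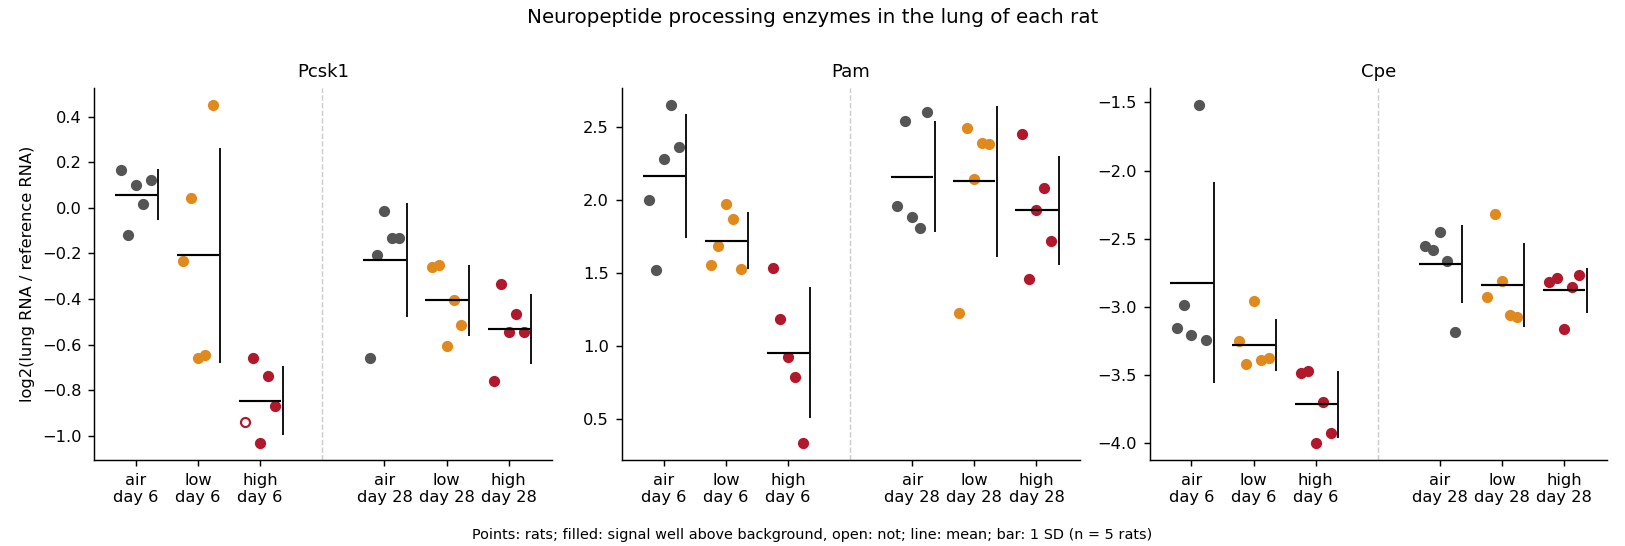
Log2 ratio of lung RNA over reference RNA for Pcsk1, Pam and Cpe in each of the 30 rats, by group, drawn as for Tac1. The high dose rats of day 6 are the lowest group in each panel, with means of -0.85, 0.95 and -3.72.

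Of 8 peptidases able to cut substance P, 7 were tested at the high dose on day 6, and 2 rose, Mme and Anpep, while 1 fell, Dpp4; 3 of 7 is near the 39.6% of all genes that passed. Anpep, aminopeptidase N, differed by 0.66 (limma adjusted p 0.0195), a call that was lost without air rat 4 (0.52, adjusted p 0.0724). Dpp4, dipeptidyl peptidase 4, differed by -0.49 (limma adjusted p 0.0316). At the low dose 0 of 7 passed.

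Of 21 other neuropeptide and receptor genes 14 were tested at the high dose on day 6, with 5 lower, 1 higher and a median of -0.36; without air rat 4, 6 were lower, with Vip (-0.28, limma adjusted p 0.0219) added. The 6 of 14 that passed are near the share over all genes, 39.6%. The receptor genes for vasoactive intestinal peptide, Vipr1 and Vipr2, differed by -0.96 (limma adjusted p 3.78e-06) and -1.03 (limma adjusted p 5.7e-06). Gal, which encodes galanin, differed by -1.17 (limma adjusted p 0.000105) and was the 1 list member that also passed at the low dose (-0.81, limma adjusted p 0.0213). Among the 14, Calca, the gene of calcitonin gene-related peptide, which sensory nerves often release with substance P, was measured on 28 of 30 arrays and differed by -0.51 (limma adjusted p 0.149).

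Of 16 genes of sensory ion channels and nerve growth factors 11 were tested at the high dose on day 6, with 5 lower and 1 higher, where 39.6% of all genes passed. Artn, which encodes the nerve growth factor artemin, differed by -1.35 (limma adjusted p 1.11e-09) and by -0.85 at the low dose (limma adjusted p 2.16e-05). Scn10a, a sodium channel gene of sensory neurons, was the 1 higher gene, by 1.50 (limma adjusted p 5.95e-08), and was well above background on 19 of 30 arrays. Ntf3, neurotrophin 3, was among the 5 lower genes (limma adjusted p 0.00716), but it was well above background in 0 of 5 high dose rats, so no fold is given. It was well above background on 12 of 30 arrays, in every air rat of day 6 but in no air rat of day 28. Its mean log2 ratio was 0.39 in air rats of day 6, 0.17 in air rats of day 28 and 0.08 in high dose rats of day 6. Trpv1, the capsaicin receptor gene, differed by -0.08 (limma adjusted p 0.484), and Trpa1 was well above background on 0 arrays.

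Neuron markers gave a mixed picture beside these nerve genes. Of 12 neuron markers 6 were tested at the high dose on day 6, where 39.6% of all genes passed. Among them 2 were lower (Elavl4, -0.24, and Stmn2, -1.14) and 1 was higher (Tubb3, 1.46). Elavl4 was well above background on 10 of 30 arrays and Tubb3 on 14, so part of their values lie near background. Without air rat 4 both lower calls were lost (Elavl4, -0.22, limma adjusted p 0.0899; Stmn2, -1.05, limma adjusted p 0.0924). Their summed log2 Cy5 signal ran from 10.89 to 11.38 in air rats and from 10.03 to 11.01 in high dose rats of day 6, and Chat, Nefl, Nefm and Snap25 were well above background on 0 arrays. Of 10 neuroendocrine cell markers 5 were tested, 1 was higher (Uchl1, 0.67) and 0 were lower, and Chga and Scg3 were well above background on 0 arrays. Their part in the Tac1 and processing enzyme values was not tested.

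Tachykinin receptors signal through the G protein Gq, and of 16 genes of that pathway and of receptor desensitisation 15 were tested at the high dose on day 6. Among them 3 rose and 3 fell, with a median of -0.06; without air rat 4, 2 rose and 2 fell, and with median centring in place of loess 3 of the 15 passed. Over all genes the share was 39.6%, so 6 of 15 is no more than that. Itpr1, a calcium release channel of the endoplasmic reticulum, differed by -0.77 (limma adjusted p 9.91e-05). Arrb2, an arrestin that uncouples receptors, differed by 0.49 (limma adjusted p 0.00131), and Grk2, a kinase that marks receptors for arrestin, by 0.39 (limma adjusted p 0.00513).

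Ace and Mme also act on angiotensin and kinin peptides, and of 15 genes of that system 10 were tested at the high dose on day 6, with 2 higher and 1 lower, where 39.6% of all genes passed. The count of 3 became 5 in the authors' deposited table or when the reference channel was not used, and 2 when a probe had to be well above background on at least 15 arrays. Kng2, a kininogen gene, differed by 3.49 at the high dose (limma adjusted p 4.81e-12) and 1.80 at the low dose (limma adjusted p 6.35e-06). Kng1, another kininogen gene and the other of the 2 higher, was well above background in no air rat of day 6. By the approximate bound it was about 3.85-fold or more higher at the high dose. It was well above background on 11 of 30 arrays and passed the filter through the exposed rats of day 6, where it was high. Its place in the count therefore depended on its rise. The kininogen genes are close relatives, so their probes may not tell them apart. Agt, angiotensinogen, differed by -0.90 (limma adjusted p 2.67e-05). On day 28 none of the genes tested in these 7 pathway lists passed at the high dose in limma.

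Lastly, the genes whose log2 ratios ran most like Tac1 probe 1 over the 30 rats were taken from 13427 probes of other named genes, as a description. The 6 highest Pearson correlations belonged to Pla2g2d, a secreted phospholipase A2 (r = 0.90), Abcd2, a peroxisomal fatty acid transporter (0.89), Serpinb10, a serine protease inhibitor (0.88), Gadd45a, a growth arrest gene (0.87), Plce1, a phospholipase C (0.86), and Artn (0.86). The rats share arrays and group differences, and leaving out the 2 rats farthest from the median of Tac1 gave 0.84 to 0.88 for these 6. Once each group's mean was taken away, r was 0.67 for Abcd2, 0.58 for Pla2g2d, 0.50 for Serpinb10, 0.37 for Plce1, 0.30 for Gadd45a and 0.01 for Artn. For Artn almost none of the likeness was left within groups. The 6 were picked by r over all rats, which holds the within-group part, so their within-group values are selected and have no test. Tac1 probe 1 was well above background on 22 of the 30 arrays, and its spread elsewhere is near background. Both Tac1 probes correlated at 0.95 over the rats and at 0.85 within groups. Among the other members r with Tac1 probe 1 was 0.70 for Tacr2, -0.59 for Mme, 0.40 for Ace probe 1 and 0.20 for Ace probe 2, and within groups 0.32, 0.23, -0.06 and 0.12.

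Pla2g2d shows the shape of the pattern. Its log2 ratio was 2.77 ± 0.22 (SD, n = 5) in air rats of day 6, 1.24 ± 0.75 (SD, n = 5) at the low dose and 0.32 ± 0.32 (SD, n = 5) at the high dose. On day 28 it stood at 2.73, 2.64 and 2.95 in air, low dose and high dose rats. Unlike the mean of Tac1, its high dose mean of day 28 lay above the air mean, with overlapping rats.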

How the data were processed

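Spot intensity values came from the scanner output deposited for each rat, made with Agilent Feature Extraction 11.0.1.1 per the file headers. The deposited flags for background, saturation and outlying spots, coded 0 or 1 per the file headers, were used as given. The authors' deposited value table, in log2 units with its method not given in the sources used here, served as an alternative; its columns correlated with the ratios used here at 0.967 to 0.999 across probes and had medians from -0.0314 to -0.00539. By the labels the reference RNA is from mouse in 1 field and from 14 rat cell lines in another. It was shared by all arrays, but its raw Cy3 signal varied between arrays. For Ace probe 1 on day 6, raw Cy3 ran from 792 to 885.5 in air rats and from 450.5 to 786.5 at the high dose. In air rats of day 28 it ran from 542.5 to 847, and raw signals are not scaled between arrays. Both Ace probes passed at the high dose on day 6 only when Cy3 was left out or, for probe 2, also with the slide as a block. The part of the reference channel in these calls was not tested.

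Median spot and local background intensities were corrected with normexp (offset 50) and normalized by loess within arrays, giving control and outlier spots no weight. Outlier spots were left out and spots of a probe averaged. Probes well above background in Cy5 on at least 5 of 30 arrays were kept. Probe accessions were matched to RefSeq symbols (GRCr8; 18005 of 30367 probes). Group means were fitted together in limma 3.58.1 (R 4.3.3), with Benjamini-Hochberg adjustment over 20852 probes and a threshold of 0.05; adjusted p-values are from this fit unless another is named. Exact permutation tests are two-sided and cannot go below 0.00794 with 5 rats a group. In lists, a gene counts by its brightest probe. Of simulated high dose changes of day 6 (20852 probes), the fit recovered 44 of 67 at 0.5 (log2), 61 of 67 at 1 and 66 of 66 at 2. The simulation had independent normal noise and changed only the probes counted here. In the real comparison 35.7% of probes passed, so these rates do not describe it.

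Members, lists and tests were chosen with earlier results of these data known. Named are all member probes, the 6 probes most like Tac1 and, ranked by p in the comparison of high dose and air on day 6, the first 3 other members of a pathway list and the first 2 of a marker list; Pcsk1n, Scg5, Vip, Calca, Trpv1, Trpa1, Stmn2 and the genes that were never above background were named after their values were seen. The replicates are separate rats, and their number limits the precision. Arrays lay on 4 slides, tested as a block and within slides. Alternatives were other background, normalization, channel, filter and fit settings, the authors' table, and each rat left out.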

Additional observations from a re-analysis of the deposited data

Results flagged for a closer look

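Some rats lay apart from the other 4 of their group. For Tac1 probe 1, low dose rat 55 of day 28 had a log2 ratio of 0.67 and the next rat 1.63. Mme stood at 2.35 in air rat 3 of day 6, with the next rat at 2.01, and at 3.16 in high dose rat 79 of day 6, with the next at 2.68. For Tacr1, air rat 4 of day 6, the rat with the most heart muscle RNA, had -0.0894, and high dose rat 81 of day 28 had -0.17, both near background. Among the processing enzymes, Pam stood at 1.23 in low dose rat 52 of day 28, with the next rat at 2.15. Cpe stood at -1.52 in air rat 4 of day 6, with the next rat at -2.99, at -3.18 in air rat 10 of day 28, with the next at -2.66, and at -3.17 in high dose rat 82 of day 28, with the next at -2.85. In all 66 groups were looked at and 9 such values found, in 8 rats, where chance gives about 1 in 20 groups.

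For Tac4, Mme and Pam the tested change of the exposure effect between the days passed in limma. Of all tested probes 1.79% passed this test at the low dose and 16.1% at the high dose. From day 6 to day 28 the effect on Tac4 changed by -1.25 ± 0.25 (SE; adjusted p 0.00384) at the low dose and by -2.47 ± 0.25 (SE; adjusted p 3.59e-08) at the high dose. The effect of the high dose on Mme changed by -0.82 ± 0.16 (SE; adjusted p 0.000637). The effect of the high dose on Pam changed by 0.98 ± 0.34 (SE; adjusted p 0.0491), just under the threshold of 0.05. The Pam call was not repeated with other settings or with rats left out, so how far it holds is not known. Its air mean of day 6 includes the rat with the most heart muscle RNA.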

How the results depend on the processing

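The calls for Mme and Tacr2 at the high dose on day 6, and for Tac4 at both doses, held in every alternative run as a fit with a test. No paired analysis was possible because each rat has its own number and no number is shared between groups. The Tac1 difference at the high dose on day 6 ran from -2.26 (probes averaged) to -7.18 (processed signals, from which background is already subtracted); it was -3.38 to -3.26 with 1 rat left out. Cy5 without the reference called both Ace probes at the high dose on day 6 (-0.73 and -0.76). Tacr2 at the high dose on day 6 was -1.50 with processed signals. Counts of probes past the threshold moved most on day 28: at the low dose 8 with processed signals and 7 with Cy5 alone, and 4 to 8 with 1 rat left out; at the high dose 9 with median centring, 124 with Cy5 alone and 17 with only the compared groups, and 14 to 350 with 1 rat left out (350 without air rat 8, 66 and 110 without high dose rats 80 and 84, 17, 14 and 21 without air rats 6 and 9 and high dose rat 82). Median centring gave 448 at the low dose on day 6, against 1307. Small differences changed sign: Ace probe 2 at the low dose on day 6 was 0.0384 without background correction, 0.17 with processed signals and -0.12 to 0.0600 with 1 rat left out; Mme at the high dose on day 28 was 0.0159 in the authors' table and 0.0054 for Cy5 alone; Tacr2 at the high dose on day 28 was -0.11 to 0.0064 with 1 rat left out. Within slides, with 1 or 2 rats a group and no test, Tacr2 between the days at the high dose was -0.11 (slide 1), Tacr2 was 0.18, -0.50 and -0.43 (low dose, day 6, slides 1, 3 and 4) and -0.16 and -0.67 (high dose, slides 1 and 4), Ace probe 1 was -0.55 (low dose, slide 1), Mme was 0.94 and 0.29 (high dose, slides 2 and 4) and -0.0413 (low dose, slide 4), and Tac1 probe 1 on day 28 was 0.29 (low dose, slide 1) and -1.77 (high dose, slide 4). The change of the high dose effect on Tacr2 between the days passed without background correction, with processed signals, in the authors' table and without 1 of 3 rats. Causes were not tested.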
